A study of Homo sapiens with 8 samples.

Results

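The genes described here encode aminoacyl-tRNA synthetases, the enzymes that attach each amino acid to its transfer RNA (tRNA) before protein synthesis. They were taken as a list of 35 named genes, 19 for cytosolic and 16 for mitochondrial enzymes. The genes were listed by name, with earlier results of these data known. All 35 were found among the 38010 gene IDs of the count table, and all 35 passed the filter on low counts that left 15184 genes for testing. RNA carrying a poly-A tail was sequenced from confluent Ea.hy926 cells, a human hybrid of umbilical vein endothelium and the lung carcinoma line A549. The study compared 4 biological replicates of an OXPHOS-deficient line (Rho0) with 4 of the parental line (Eahy), in a project on mitochondrial respiration, autophagy and stress resistance of non-dividing cells. OXPHOS is oxidative phosphorylation, and Rho0 cells are cells that have lost mitochondrial DNA. Each line is a single source, so a difference that arose between the lines for another reason cannot be told apart from one that goes with the loss of respiration. Both lines were sampled at confluence.

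For most amino acids, human cells keep separate synthetases for the cytosol and the mitochondrion. The mitochondrial enzymes are encoded in the nucleus, usually by a gene with the suffix 2, and they serve the translation of the few proteins encoded by mitochondrial DNA. Several cytosolic enzymes sit together in the multi-synthetase complex, held by the scaffold proteins AIMP1, AIMP2 and EEF1E1. Many cytosolic synthetase genes are known targets of ATF4, the transcription factor that is translated when the integrated stress response (ISR) is active.

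Total estimated counts per library were 11721708 to 37203507 in Rho0 and 23366190 to 28599386 in parental cells. The 13 mRNAs of mitochondrial DNA, which check the Rho0 label, made up 0.0409% ± 0.0720 of counts in Rho0 and 18.5% ± 2.21 in parental cells (SD, n = 4 each). Rho0 replicate 2 held more of them (0.149%) than the other Rho0 libraries (0.00296% to 0.00756%). Levels below are CPM, counts put on a common scale by library size, with the sizes adjusted by the trimmed mean of M values (TMM), which sets the bulk of genes equal between libraries. Rho0 had 4399 of the tested genes (29.0%) higher and 3858 (25.4%) lower at an adjusted p of 0.05 in edgeR's quasi-likelihood test, 54.4% in all. When libraries were scaled by their total counts alone, 8583 (56.5%) were higher and 1540 (10.1%) lower, and the median over all genes was 0.44 on the log2 scale in place of 0.05. Changes of the synthetases are therefore also given relative to that median. Summed endothelial markers were 4985 to 5304 CPM in Rho0 and 4869 to 5230 CPM in parental cells, with CLDN5 near 0 in both. Single markers changed in both directions, with 4 of 9 tested higher (among them KDR at a log2 fold change of 3.24 and PECAM1 at 0.96) and 3 lower (among them CDH5 at -0.73 and ESAM at -0.64). Summed lung carcinoma epithelial markers were lower in Rho0, at 1295 to 2079 CPM against 2607 to 2880 CPM in parental cells, with KRT19 near 0. Of 5 tested, KRT8 (log2 fold change -1.21) and KRT18 (-0.89) were lower, 1 was higher and 2 did not pass. The part of these markers in the results below was not tested. Fibroblast markers summed to 1.46 to 2.32 CPM in Rho0 and 1.65 to 2.51 CPM in parental cells. Leukocyte markers, nearly all of them CD68, summed to 122 to 141 CPM in Rho0 and 96.5 to 119 CPM in parental cells, with CD3E at 0. In bulk RNA, fewer cells with a transcript and less of it per cell cannot be told apart.

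Relative to all genes tested, cytosolic synthetase mRNAs were on median higher in Rho0 and mitochondrial ones lower. Of the 19 cytosolic genes, 11 were higher in Rho0 and 4 lower, with a median log2 fold change of 0.24, which is 0.18 above the median of all genes. Of the 16 mitochondrial genes, WARS2 was higher, 7 were lower and 8 did not pass the test, with a median of -0.24, which is 0.30 below the median of all genes. With scaling by total counts alone the mitochondrial median turned positive (0.14), with 4 genes higher and 1 lower, while the cytosolic median was 0.62, with 15 higher and 1 lower. The difference between the medians was 0.48 under either scaling. A change of scaling shifts all genes by about the same amount, so it could hardly change this difference. Over all alternatives tried, the difference was 0.46 to 0.59. Without Rho0 replicate 3 the number of mitochondrial genes called lower was 4, without Rho0 replicate 4 it was 9, and without Rho0 replicate 1 the mitochondrial median was -0.38. The counts with TMM scaling and all 8 libraries stand beside the 29.0% of all genes that were higher and the 25.4% that were lower. Those with scaling by total counts alone stand beside 56.5% higher and 10.1% lower. Without Rho0 replicate 3, 3491 of 15399 genes tested were lower, and without Rho0 replicate 4, 4195 of 15314. The CPM ranges of the lines did not overlap for 13 cytosolic genes (10 with Rho0 above, 3 with Rho0 below) and for 7 mitochondrial genes (1 above, 6 below), beside 50.9% of all genes tested (26.6% above, 24.3% below). Within Rho0, replicate 4 was the lowest library for 11 of the 19 cytosolic genes and the highest for 6, and its part in the spread was not tested.

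**Figure D1:**
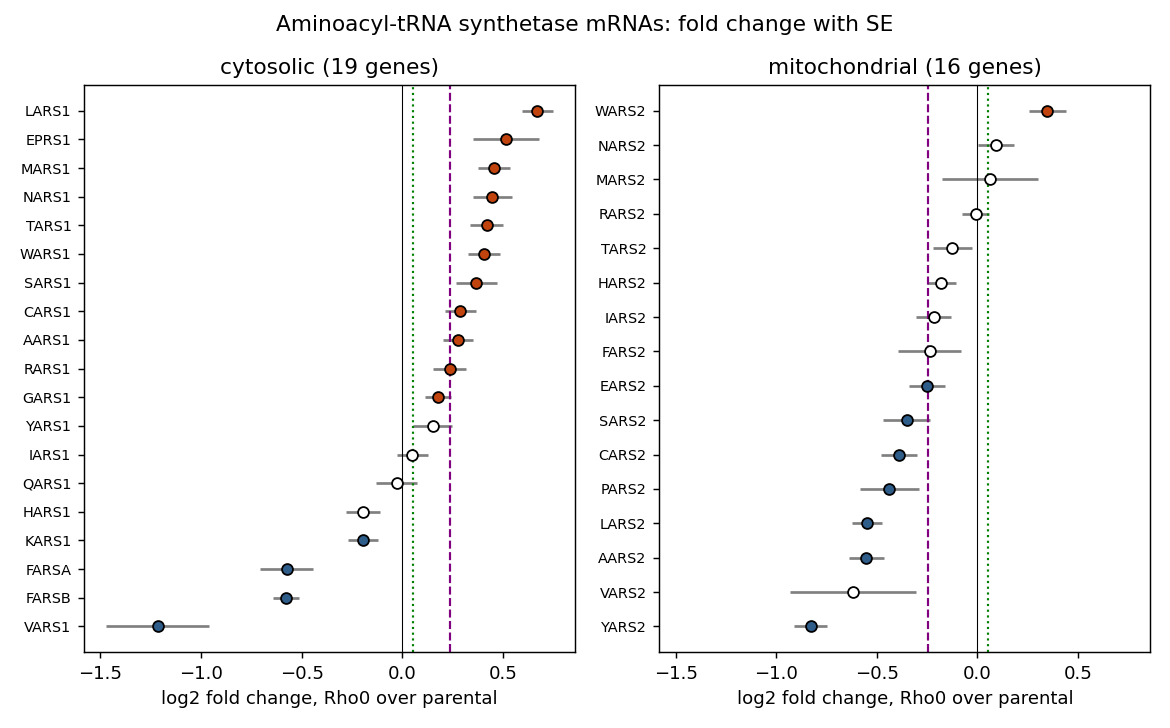
Log2 fold change of each synthetase gene, Rho0 over parental, with standard errors, for the 19 cytosolic and 16 mitochondrial enzymes; filled points passed an adjusted p of 0.05 in edgeR and white points did not. Most cytosolic points lie right of the median of all genes (0.05) and most mitochondrial points left of it, with a cytosolic median of 0.24 and a mitochondrial median of -0.24, which becomes 0.14 when libraries are scaled by total counts alone.

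The summed level of the 19 cytosolic mRNAs was 2566, 2441, 2517 and 2316 CPM in Rho0 replicates 1 to 4, and 2104, 2154, 2239.7 and 2167 CPM in parental replicates 1 to 4. All Rho0 libraries lay above all parental ones. The 16 mitochondrial mRNAs summed to 307, 300.4, 295 and 296 CPM in Rho0 and to 347, 369, 364 and 366 CPM in parental cells. Here all Rho0 libraries lay below. The ratio of the sums, not corrected for transcript length, does not depend on library scaling, and it was 8.21 ± 0.310 in Rho0 and 5.997 ± 0.139 in parental cells (SD, n = 4 each), again without overlap. The cytosolic sum includes KARS1 (mean 137 CPM in Rho0 and 157 CPM in parental cells) and GARS1 (175 and 155 CPM). Both genes also make a mitochondrial enzyme. Per kilobase of the principal transcript, the median level of the cytosolic genes was 33.0 CPM in Rho0 and 37.2 CPM in parental cells. These medians belong to different genes, LARS1 in Rho0 and YARS1 in parental cells. Per kilobase, LARS1 was at 33.0 CPM in Rho0 and 20.7 CPM in parental cells. YARS1, which did not pass the test, was at 41.3 CPM in Rho0 and 37.2 CPM in parental cells. The median of the mitochondrial genes was 5.45 CPM in Rho0 and 6.93 CPM in parental cells. The highest level per kilobase was that of SARS1 in Rho0 (106 CPM) and of FARSA in parental cells (87.0 CPM).

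**Figure D2:**
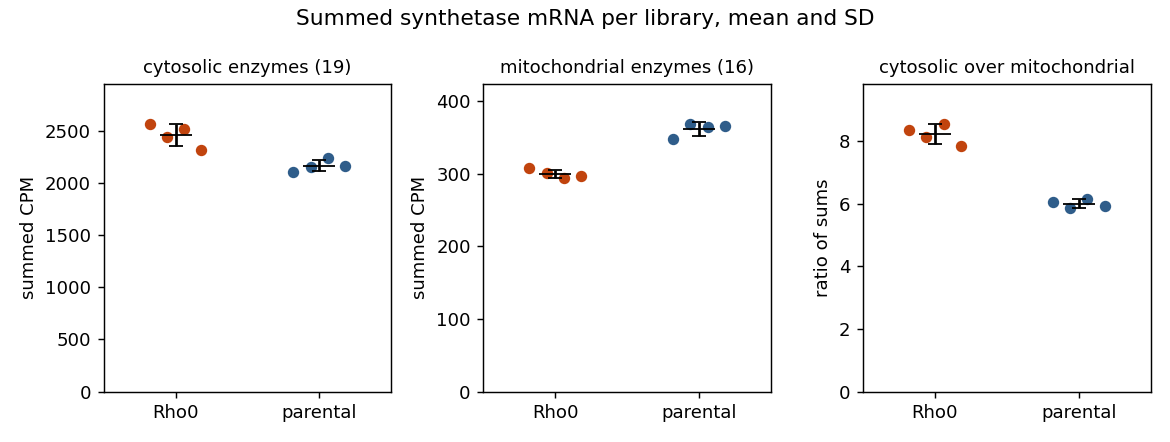
Summed CPM of the 19 cytosolic genes, of the 16 mitochondrial genes, and the ratio of these sums; each point is a library, and bars give the mean and SD of 4. The ratio lies between 7.82 and 8.54 in the Rho0 libraries and between 5.84 and 6.155 in the parental ones.

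Promoters were searched for TGATGNAA, the core of the composite element that C/EBP and ATF factors bind and through which ATF4 acts on several amino acid genes. The search covered both strands of a window of 300 bases, from 250 before to 50 after each gene's start (RefSeq, GRCh38.p14). Windows were on hand for 16 of the 19 cytosolic genes (21 windows, since some genes have several starts) and for 14 of the 16 mitochondrial genes (18 windows). At least 1 window held the motif in 7 of these 16 cytosolic genes and in 1 of these 14 mitochondrial genes, YARS2, against 306 of the 10725 tested genes with a window (2.85%). CARS1, GARS1 and TARS1 each have a further window with no match. The matches are printed below with 11 bases on either side, read on the strand that holds the motif (in capitals), because these are the synthetase genes of the list that share it.
AARS1 (chr16:70289675-70289704, + strand): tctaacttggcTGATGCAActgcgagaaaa
CARS1 (chr11:3057407-3057436, + strand): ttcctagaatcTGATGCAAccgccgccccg
GARS1 (chr7:30594834-30594863, - strand): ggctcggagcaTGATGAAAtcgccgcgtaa
IARS1 (chr9:92293692-92293721, + strand): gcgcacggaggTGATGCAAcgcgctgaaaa
MARS1 (chr12:57488053-57488082, - strand): gaatccctcgcTGATGCAAccggaaccggc
NARS1 (chr18:57621804-57621833, - strand): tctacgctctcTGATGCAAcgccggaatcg
TARS1 (chr5:33440956-33440985, - strand): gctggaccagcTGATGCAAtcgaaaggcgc
YARS2 (chr12:32756076-32756105, - strand): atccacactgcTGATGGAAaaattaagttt
Of the 7 cytosolic genes with the motif, 6 were higher in Rho0 and IARS1 did not pass the test. These stand beside 11 of all 19 cytosolic genes and 29.0% of all genes tested that were higher. YARS2 was lower. EPRS1, RARS1, SARS1, WARS1 and WARS2 were higher with no match in their windows, and no window was on hand for LARS1. Of the other cytosolic genes with a window and no match, FARSA, FARSB and KARS1 were lower, and HARS1 and QARS1 did not pass. For comparison, 7 of 19 ATF4 target genes outside the synthetases that have a window held it, among them the asparagine synthetase gene ASNS and the glutathione-degrading enzyme gene CHAC1.
ASNS (chr7:97872458-97872487, - strand): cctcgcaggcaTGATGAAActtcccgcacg
CHAC1 (chr15:40953251-40953280, - strand): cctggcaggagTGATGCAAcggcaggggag
A match is a run of letters and not a shown binding site.

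Among the cytosolic enzymes of the multi-synthetase complex, 4 of 7 were higher in Rho0 and 1 was lower, with a median of 0.24, and outside it 7 of 12 were higher and 3 lower, with a median of 0.23, beside 29.0% of all genes higher and 25.4% lower. Without parental replicate 1 or 3, the complex had 2 genes higher. After a correction of libraries for the length and GC content of transcripts it had 3 higher and 2 lower. Its median was then 0.11, against 0.19 outside it and -0.04 over all genes. LARS1 (chr5:146113038-146182660, GRCh38), which charges leucine tRNA and also reports leucine to the growth kinase mTORC1, showed the greatest rise of the 35 genes without that correction. Its level was 144, 148, 159 and 179 CPM in Rho0 and 97.3, 100.04, 97.2 and 101 CPM in parental cells. Every Rho0 library was above every parental one, a 1.59-fold difference (log2 fold change 0.67, SE 0.08, adjusted p = 3.61e-05), which was 0.42 on the log2 scale after the correction, below MARS1 and SARS1 (0.46 and 0.43). MARS1 (chr12:57475445-57517569), the methionine enzyme, had 231, 217, 218 and 185 CPM in Rho0 and 151, 149, 165 and 155 CPM in parental cells (log2 fold change 0.46, SE 0.08, adjusted p = 6.68e-04). The groups did not overlap. MARS1 shares 355 exonic bases with DDIT3 and 519 with ARHGAP9 on the opposite strand. How the authors' counting treated strand is not stated in the labels. Per kilobase of transcript, DDIT3 was at 10.8 CPM in Rho0 and 3.79 CPM in parental cells, and MARS1 at 73.2 CPM in Rho0 and 53.4 CPM in parental cells.

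EPRS1 (chr1:219968601-220046658), one protein that charges both glutamate and proline tRNAs, had 68.1, 81.7, 89.9 and 131 CPM in Rho0 and 63.0, 66.2, 62.7 and 67.7 CPM in parental cells. The lowest Rho0 library was just above the highest parental one, and Rho0 replicate 4 stood well above the rest. The log2 fold change was 0.52 (SE 0.17, adjusted p = 0.0222), 0.29 without Rho0 replicate 4, and 0.27 after the length and GC correction, and it missed the threshold without parental replicate 1 (adjusted p = 0.0548) or 3 (adjusted p = 0.0572). RARS1 (chr5:168486445-168519299), for arginine, had 50.1 to 59.3 CPM in Rho0 and 40.7 to 48.8 CPM in parental cells (log2 fold change 0.24, adjusted p = 0.0322). This small rise, without overlap, was not called after the length and GC correction (0.11, adjusted p = 0.0983) or when Rho0 replicate 2 or 4 or parental replicate 1, 2 or 3 was left out (adjusted p 0.0587 to 0.0973).

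The remaining enzymes of the complex did not rise. KARS1 (chr16:75627474-75648643), whose gene makes the lysine enzyme of both compartments by alternative splicing, had 151, 132, 138 and 128 CPM in Rho0 and 148, 167, 153 and 162 CPM in parental cells. The lines overlapped through Rho0 replicate 1, and the log2 fold change of -0.20 (adjusted p = 0.042) turned to 0.19 (adjusted p = 0.0436) with scaling by total counts alone. The call was lost when any of Rho0 replicates 2, 3 and 4 or parental replicates 2, 3 and 4 was left out (adjusted p 0.0564 to 0.123). IARS1 (chr9:92210207-92293756), for isoleucine, was at 102 to 127 CPM in Rho0 and 106 to 115 CPM in parental cells (log2 fold change 0.05, adjusted p = 0.608). It was called lower after the length and GC correction (-0.15, adjusted p = 0.0139) and higher with scaling by total counts alone (0.44, adjusted p = 0.00187). QARS1 (chr3:49095932-49105135), the cytosolic glutamine enzyme, was at 231, 212, 196 and 162 CPM in Rho0 and 197, 198, 221 and 199 CPM in parental cells (log2 fold change -0.03, adjusted p = 0.843). It was called higher with scaling by total counts alone (0.36, adjusted p = 0.00317). For both genes the parental values lay within the range of Rho0.

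Outside the complex, 7 genes rose, 4 of them by 0.37 to 0.45 on the log2 scale. NARS1 (chr18:57600656-57622213), for asparagine, had 76.2, 74.5, 88.3 and 99.6 CPM in Rho0 and 62.2, 61.1, 58.8 and 66.5 CPM in parental cells (log2 fold change 0.45, SE 0.10, adjusted p = 0.00283). TARS1 (chr5:33440696-33469539), for threonine, had 119.8, 126, 140.4 and 148 CPM in Rho0 and 99.4, 104, 92.0 and 105 CPM in parental cells (log2 fold change 0.42, SE 0.08, adjusted p = 0.00155; 0.23 after the length and GC correction). Neither gene's lines overlapped. WARS1 (chr14:100333788-100376805), the tryptophan enzyme and a known interferon-inducible gene, had 202, 195, 204 and 168 CPM in Rho0 and 146, 141, 157 and 137 CPM in parental cells (log2 fold change 0.41, SE 0.08, adjusted p = 0.00155). SARS1 (chr1:109213918-109238169), for serine, had 228, 199.5, 199.9 and 157 CPM in Rho0 and 146, 150.5, 162 and 149 CPM in parental cells (log2 fold change 0.37, SE 0.10, adjusted p = 0.0112). WARS1 did not overlap between lines, while Rho0 replicate 4 of SARS1 fell below parental replicate 3.

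CARS1 (chr11:3000922-3057613), for cysteine, had 90.7, 82.7, 86.1 and 74.3 CPM in Rho0 and 65.8, 72.0, 65.9 and 69.5 CPM in parental cells (log2 fold change 0.29, SE 0.08, adjusted p = 0.00871). AARS1 (chr16:70252295-70289543), for alanine, had 299, 281, 282 and 241 CPM in Rho0 and 218, 226, 237 and 229.6 CPM in parental cells (log2 fold change 0.28, SE 0.08, adjusted p = 0.0107). Neither overlapped between lines, but AARS1 missed the threshold without Rho0 replicate 2 (adjusted p = 0.054) or 3 (adjusted p = 0.0558). GARS1 (chr7:30594681-30634033), whose gene also makes the glycine enzyme of mitochondria, had 178, 170.0, 186 and 168 CPM in Rho0 and 152, 149, 166 and 153 CPM in parental cells. The lines were just separate, and the log2 fold change of 0.18 (adjusted p = 0.039) lost its call when any of Rho0 replicates 1, 2 and 3 or parental replicates 1, 2 and 4 was left out (adjusted p 0.0934 to 0.176). YARS1 (chr1:32775237-32818153), for tyrosine, was at 109.7 to 146 CPM in Rho0 and 113 to 133 CPM in parental cells and did not pass (log2 fold change 0.15, adjusted p = 0.215). Rho0 replicate 4 was its lowest library, and without it the value was 0.23 (adjusted p = 0.0118).

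**Figure D3:**
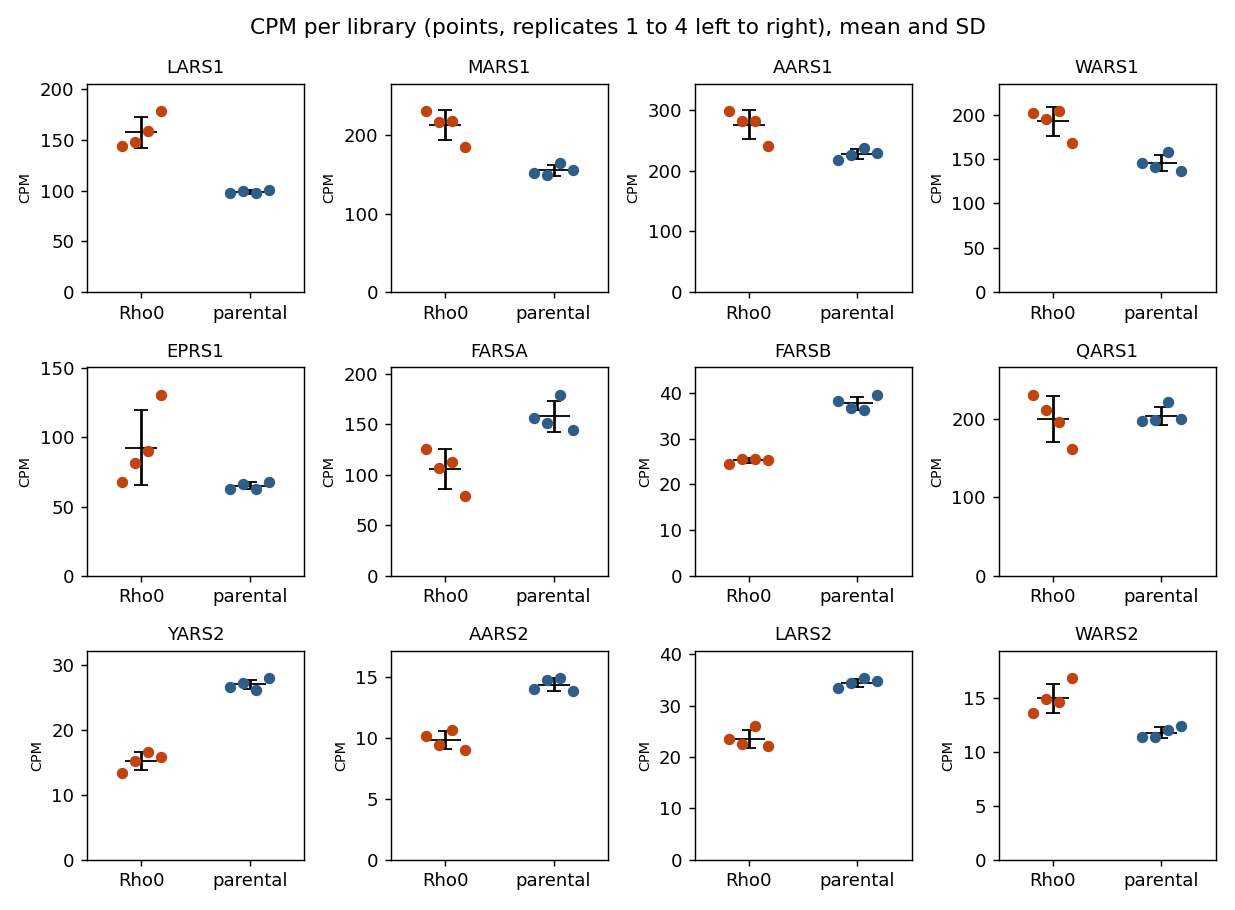
CPM of 12 synthetase genes in each library, with the mean and SD of 4 replicates per line; each panel starts at 0. LARS1, MARS1, AARS1, WARS1 and WARS2 sit higher in every Rho0 library, FARSA, FARSB, YARS2, AARS2 and LARS2 sit lower in every Rho0 library, the EPRS1 mean is drawn up by Rho0 replicate 4 (131 CPM), and QARS1 overlaps.

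Cytosolic genes with lower values included both chains of the phenylalanine enzyme, whose alpha and beta subunits are made by separate genes. FARSA (chr19:12922479-12934037), the alpha chain, had 126, 107, 113 and 78.7 CPM in Rho0 and 156, 151, 179 and 144 CPM in parental cells (log2 fold change -0.57, SE 0.13, adjusted p = 0.00381). FARSB (chr2:222570536-222656337), the beta chain, had 24.5, 25.5, 25.6 and 25.4 CPM in Rho0 and 38.2, 36.7, 36.3 and 39.6 CPM in parental cells (log2 fold change -0.58, SE 0.07, adjusted p = 3.08e-05). Neither gene overlapped between lines. After the length and GC correction the values were -0.51 for FARSA and -0.77 for FARSB, without Rho0 replicate 4 they were -0.46 and -0.59, and with scaling by total counts alone both were still below 0 (-0.18 and -0.19) but not called. Per kilobase, FARSA was at 58.5 CPM in Rho0 and 87.0 CPM in parental cells, and FARSB at 7.49 CPM in Rho0 and 11.2 CPM in parental cells.

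VARS1 (chr6:31777518-31795953), for valine, had 7.60, 6.63, 3.09 and 4.31 CPM in Rho0 and 11.2, 15.3, 9.59 and 13.7 CPM in parental cells (log2 fold change -1.21, SE 0.26, adjusted p = 0.00224). It was lower in every Rho0 library and was also called lower with scaling by total counts alone. Its level is uncertain: 2 other gene IDs, without an annotated name, held the same values in every library within 2%, and VARS1 was the only synthetase with such IDs. The sum of the 3 IDs was 16.2 CPM in Rho0 and 37.3 CPM in parental cells.

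HARS1 and HARS2, the cytosolic and mitochondrial histidine enzymes, are neighbours on chromosome 5 read in opposite directions, with starts 85 bases apart in the RefSeq promoter table. The 84 bases between those starts (chr5:140691371-140691454, + strand, GRCh38.p14, 59.5% G and C) are printed because they separate the genes in that table. GENCODE 29 places the outermost starts elsewhere, that of HARS1 at 140691862 and that of HARS2 at 140691426, so that the genes overlap there.
HARS1 to HARS2: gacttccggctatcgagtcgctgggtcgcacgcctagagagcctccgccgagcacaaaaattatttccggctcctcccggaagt
HARS1 had 91.7, 79.9, 80.2 and 69.9 CPM in Rho0 and 89.6, 93.5, 91.3 and 93.6 CPM in parental cells (log2 fold change -0.19, adjusted p = 0.0704). HARS2 had 34.0, 32.6, 31.6 and 34.9 CPM in Rho0 and 36.2, 39.1, 35.5 and 40.2 CPM in parental cells (log2 fold change -0.18, adjusted p = 0.0543). Neither passed, although the lines did not overlap for HARS2, and the ratio of HARS1 to HARS2 overlapped between lines (2.00 to 2.69 in Rho0, 2.33 to 2.57 in parental cells). HARS1 passed without Rho0 replicate 1 (-0.29, adjusted p = 0.00693), and HARS2 without Rho0 replicate 1 (adjusted p = 0.0293), Rho0 replicate 4 (adjusted p = 0.0271) or parental replicate 3 (adjusted p = 0.0481). After the length and GC correction both were called lower (-0.16 for HARS1, adjusted p = 0.022, and -0.19 for HARS2, adjusted p = 0.016). By GENCODE 29 the genes share 437 exonic bases on opposite strands.

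Of the mitochondrial enzymes, YARS2 (chr12:32727490-32755902), for tyrosine, fell the most among those called. It had 13.4, 15.1, 16.6 and 15.8 CPM in Rho0 and 26.7, 27.3, 26.2 and 27.95 CPM in parental cells, with a wide gap between the lines. The level was 1.78-fold lower in Rho0 (log2 fold change -0.83, SE 0.08, adjusted p = 1.29e-05), and YARS2 was the only mitochondrial synthetase still called lower with scaling by total counts alone (-0.44).

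AARS2 (chr6:44299654-44313326), for alanine, had 10.2, 9.42, 10.6 and 8.95 CPM in Rho0 and 14.0, 14.8, 14.8 and 13.9 CPM in parental cells (log2 fold change -0.55, SE 0.09, adjusted p = 3.35e-04). LARS2 (chr3:45388506-45549421), for leucine, had 23.6, 22.5, 26.0 and 22.2 CPM in Rho0 and 33.4, 34.4, 35.3 and 34.8 CPM in parental cells (log2 fold change -0.55, SE 0.07, adjusted p = 1.15e-04). Both were lower in every Rho0 library, and with scaling by total counts alone both stayed below 0 without a call (-0.16 each). CARS2 (chr13:110641412-110713603), for cysteine, had 24.8, 23.7, 20.2 and 21.1 CPM in Rho0 and 27.9, 29.9, 31.9 and 27.7 CPM in parental cells, and its log2 fold change of -0.39 (SE 0.09, adjusted p = 0.00394) became 0.01 with scaling by total counts alone. PARS2 (chr1:54756898-54764514), for proline, had 7.01, 6.48, 6.22 and 4.62 CPM in Rho0 and 7.62, 7.83, 9.69 and 7.67 CPM in parental cells (log2 fold change -0.44, SE 0.15, adjusted p = 0.026). The lines did not overlap for either gene, but the call of PARS2 was lost without Rho0 replicate 3 (adjusted p = 0.0505) or parental replicate 3 (adjusted p = 0.0791).

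SARS2 (chr19:38915266-38930896), for serine, had 33.2, 29.5, 27.8 and 22.7 CPM in Rho0 and 31.7, 37.2, 36.4 and 38.8 CPM in parental cells, and its log2 fold change of -0.35 (adjusted p = 0.025) became 0.04 with scaling by total counts alone. EARS2 (chr16:23522014-23557731), for glutamate, had 23.2, 22.5, 21.96 and 20.2 CPM in Rho0 and 22.8, 27.6, 28.5 and 25.6 CPM in parental cells, and its log2 fold change of -0.25 (adjusted p = 0.0332) became 0.14 with that scaling. In both genes parental replicate 1 lay within the Rho0 range. SARS2 missed the threshold without Rho0 replicate 3 or parental replicate 2, 3 or 4 (adjusted p 0.0547 to 0.0697), and EARS2 without the same libraries (adjusted p 0.059 to 0.0951). SARS2 also shares 1492 exonic bases on its own strand with the annotated gene AC011455.2, which was at 0.226 to 6.05 CPM in Rho0 and 3.67 to 11.03 CPM in parental cells, so reads of these genes may be split between them.

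WARS2 (chr1:119031216-119140671), for tryptophan, was the one mitochondrial synthetase that rose. It had 13.6, 14.9, 14.7 and 16.9 CPM in Rho0 and 11.4, 11.4, 12.1 and 12.4 CPM in parental cells, without overlap (log2 fold change 0.35, SE 0.09, adjusted p = 0.00809; 0.20 after the length and GC correction). Its cytosolic counterpart WARS1 rose as well.

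The other mitochondrial synthetases did not pass. IARS2 (chr1:220094102-220148041), for isoleucine, had the highest mitochondrial level per kilobase, 15.6 CPM in Rho0 and 18.2 CPM in parental cells. Its log2 fold change was -0.22 (adjusted p = 0.054), -0.30 (adjusted p = 0.00243) without Rho0 replicate 4, which was its highest Rho0 library, and past the threshold also without parental replicate 3 (adjusted p = 0.0468) and after the length and GC correction (-0.37, adjusted p = 6.44e-05). FARS2 (chr6:5261044-5829192), the single-chain phenylalanine enzyme, had 9.15, 6.18, 6.60 and 5.32 CPM in Rho0 and 7.76, 8.67, 7.99 and 7.81 CPM in parental cells. Only Rho0 replicate 1 was above the parental range, and the log2 fold change was -0.24 (adjusted p = 0.227) with it and -0.45 (adjusted p = 0.0067) without it. TARS2 (chr1:150487364-150507609), for threonine, was at 20.1 to 25.1 CPM in Rho0 and 21.998 to 26.9 CPM in parental cells (log2 fold change -0.13, adjusted p = 0.294). RARS2 (chr6:87514378-87590003), for arginine, varied little, at 25.7 to 27.2 CPM in Rho0 and 26.0 to 27.6 CPM in parental cells (log2 fold change -0.01, SE 0.07, adjusted p = 0.918). NARS2 (chr11:78435961-78574874), for asparagine, was at 8.56 to 9.64 CPM in Rho0 and 7.89 to 8.81 CPM in parental cells (log2 fold change 0.09, adjusted p = 0.41). All of these ranges overlapped.

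MARS2 and VARS2 had the lowest levels per kilobase of the mitochondrial genes, 0.765 and 0.199 CPM in Rho0 and 0.762 and 0.285 CPM in parental cells. MARS2 (chr2:197705369-197708387), for methionine, had 2.30, 1.43, 1.97 and 3.54 CPM in Rho0 and 2.39, 2.23, 2.17 and 2.42 CPM in parental cells (log2 fold change 0.06, SE 0.24, adjusted p = 0.844). VARS2 (chr6:30908242-30926459), for valine, had 0.589, 1.05, 1.07 and 0.518 CPM in Rho0 and 1.33, 1.55, 0.876 and 0.884 CPM in parental cells (log2 fold change -0.62, SE 0.31, adjusted p = 0.118). Rho0 replicates 1 and 4 of VARS2 lay below all parental libraries and replicates 2 and 3 within them. VARS2 shares 1858 exonic bases on its own strand with GTF2H4, so its level is uncertain.

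Setting each cytosolic gene against the mitochondrial gene for the same amino acid within a library gives a ratio that needs no scaling between libraries. There were 17 such pairs for 16 amino acids, with EPRS1 and FARS2 in 2 pairs each. The ratio was higher in every Rho0 library than in any parental one in 10 pairs and lower in 1, and overlapped in 6. Of all single genes tested, 50.9% did not overlap between the lines, and no share was computed over other gene pairs. The median difference of the 17 pairs was 0.52 on the log2 scale. It was greatest for leucine, where LARS1 over LARS2 was 6.12, 6.57, 6.09 and 8.05 in Rho0 and 2.92, 2.91, 2.75 and 2.90 in parental cells, a 2.32-fold difference with both genes moving. For tyrosine the ratio was 10.9, 9.15, 8.52 and 6.94 in Rho0 and 4.25, 4.31, 5.08 and 4.21 in parental cells, a 1.97-fold difference that came with the fall of YARS2. For alanine it was 29.4, 29.8, 26.7 and 26.9 in Rho0 and 15.6, 15.3, 15.98 and 16.5 in parental cells (1.78-fold). The ratios of serine (1.64-fold), cysteine (1.60-fold), isoleucine (1.204-fold) and arginine (1.19-fold) were also separate, as were both ratios of EPRS1, that to PARS2 (1.88-fold) and that to EARS2 (1.65-fold). The EPRS1 ratios were highest in Rho0 replicate 4, at 28.3 and 6.48. The threonine ratio (1.46-fold) was barely separate, with its lowest Rho0 library at 4.772 and its highest parental library at 4.770.

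Other amino acids did not follow. For tryptophan, where both genes rose, WARS1 over WARS2 was 14.8, 13.1, 13.9 and 9.98 in Rho0 and 12.8, 12.4, 13.05 and 11.004 in parental cells. For phenylalanine, FARSA over FARS2 was 13.7, 17.3, 17.1 and 14.8 in Rho0 and 20.1, 17.4, 22.4 and 18.5 in parental cells, the 1 pair with every Rho0 library lower. FARSB over FARS2, methionine, asparagine, histidine and valine gave overlapping ratios. That of valine rests on the uncertain VARS1 and VARS2, and without it the median difference was 0.53.

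**Figure D4:**
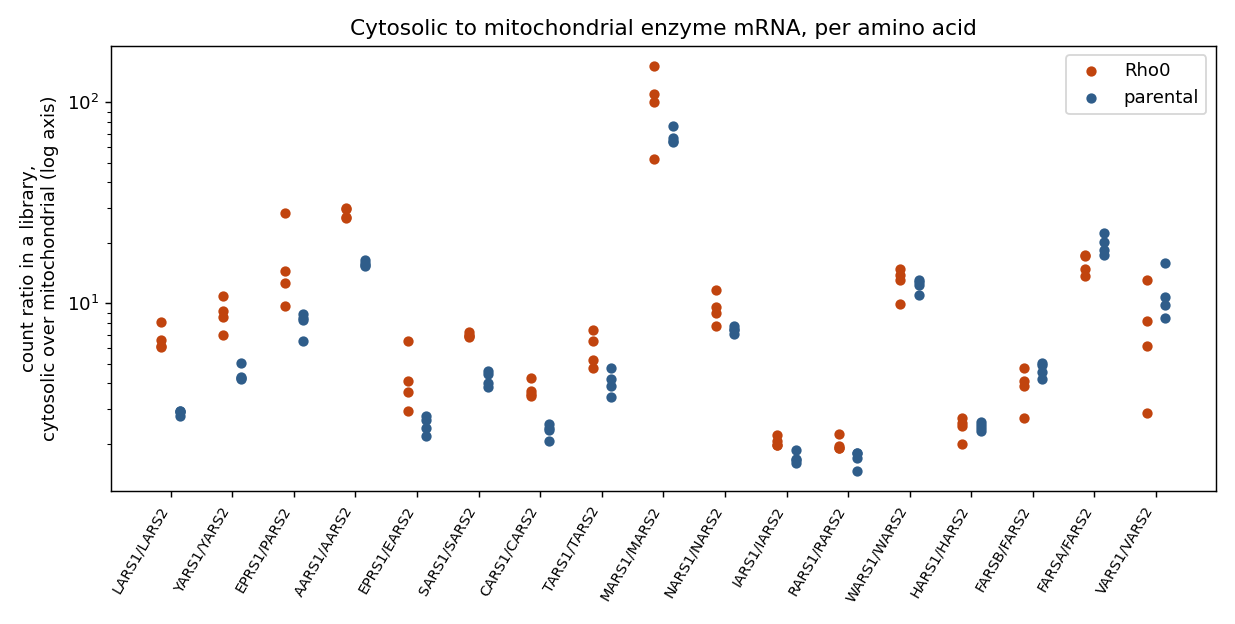
Ratio of the cytosolic to the mitochondrial synthetase mRNA for the same amino acid, per library on a log axis, for 17 pairs; each point is a library of Rho0 or of parental cells. The leucine pair is farthest apart (6.09 to 8.05 in Rho0, 2.75 to 2.92 in parental cells), while the tryptophan and histidine pairs overlap.

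The proteins around the synthetases did not share 1 direction. Of the scaffold genes, AIMP2 fell to 27.8 ± 3.56 CPM in Rho0, against 43.6 ± 4.17 CPM in parental cells (SD, n = 4 each; log2 fold change -0.65, adjusted p = 4.44e-04), while AIMP1 (-0.15, adjusted p = 0.479) and EEF1E1 (-0.13, adjusted p = 0.459) did not pass. AIMP1 was called lower after the length and GC correction (-0.47, adjusted p = 9.47e-04). Mitochondria have no glutaminyl-tRNA synthetase of their own: EARS2 first places glutamate on the glutamine tRNA, and the amidotransferase of QRSL1, GATB and GATC converts it. QRSL1 rose, with 12.8, 12.4, 13.8 and 13.7 CPM in Rho0 and 8.12, 8.43, 9.07 and 9.63 CPM in parental cells (log2 fold change 0.58, adjusted p = 3.19e-04; 0.33 after the length and GC correction). GATB was lower (-0.34, adjusted p = 0.0116) and GATC did not pass (-0.12, adjusted p = 0.151), though it did after the length and GC correction (-0.29, adjusted p = 0.00247). MTFMT, which formylates the initiator methionine tRNA of mitochondria, was lower (-0.25, adjusted p = 0.0352), a call lost under several alternatives, among them without Rho0 replicate 2 or 3 or parental replicate 1, 2 or 4 (adjusted p 0.0596 to 0.109). With scaling by total counts alone, 2 of these 4 genes were higher and none was lower, beside 56.5% and 10.1% of all genes.

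Of 12 mitochondrial translation factors, 6 were higher and 2 lower (median 0.28, beside 0.05 for all genes, of which 29.0% were higher and 25.4% lower). The length and GC correction moved the median of all genes to -0.04, with 4235 of 15184 higher and 5195 lower. Of the 12 factors, 5 were then higher and 3 lower, and the median was 0.07. Those with the largest change were the initiation factors MTIF3 (0.69) and MTIF2 (0.65), the recycling factor GFM2 (0.66) and the ribosome rescue factor MTRES1 (0.51), while the elongation factor TUFM was lower (-0.40, adjusted p = 0.0191), though not without Rho0 replicate 3 (adjusted p = 0.0583) or parental replicate 3 (adjusted p = 0.056). Of 18 genes for processing or modifying mitochondrial tRNA, 4 were higher and 6 lower (median 0.10), shares near those of all genes. After the length and GC correction 8 of them were lower and their median was -0.05, beside -0.04 for all genes. Among them OSGEPL1 (0.83) and NSUN3 (0.75, or 0.46 after that correction), which modify anticodon-loop bases, and TRNT1 (0.81), which adds the CCA end that synthetases charge, rose, and QTRT1, a subunit of the enzyme that inserts queuine, fell (-0.47). Of 9 genes listed under tRNA proofreading and transport, 4 were higher and 1 lower (median 0.16), and without Rho0 replicate 2 or parental replicate 4 there were 2 higher. The list also holds genes of elongation factor 1 and its exchange factor, and the synthetase TARS3. Its counts are therefore not of proofreading and transport alone. XPOT, which exports tRNA from the nucleus, rose to 162, 189.9, 215 and 215 CPM in Rho0, against 94.8, 89.8, 86.5 and 95.1 CPM in parental cells (log2 fold change 1.10, adjusted p = 4.44e-06), a larger log2 fold change than that of any of the 35 synthetases. DTD1, which removes wrongly attached D-amino acids, rose (0.34, or 0.22 without Rho0 replicate 1). TARS3, a further threonine enzyme, was higher (0.31, adjusted p = 0.0186), but not after the length and GC correction (0.18, adjusted p = 0.0943) or without Rho0 replicate 2 or parental replicate 3 or 4 (adjusted p 0.0574 to 0.0636). EEF1D, a subunit of the exchange factor for elongation factor 1, was lower (-0.38, adjusted p = 0.0273), but not without Rho0 replicate 2 or 3 or any 1 of the parental replicates (adjusted p 0.0541 to 0.0805). With scaling by total counts alone none of the genes in these 3 lists was lower, and the medians were 0.67, 0.48 and 0.55, beside 0.44 for all genes.

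Genes of the ISR were measured in the same libraries. ATF4 had 323, 279, 293 and 244 CPM in Rho0 and 142, 139, 146 and 142 CPM in parental cells (log2 fold change 1.0, adjusted p = 3.97e-06). DDIT3, a further transcription factor of this response, had 9.88, 9.42, 11.2 and 10.1 CPM in Rho0 and 3.67, 3.54, 3.35 and 3.67 CPM in parental cells (log2 fold change 1.51, adjusted p = 5.78e-07). Both were separate in all libraries. Of the kinases that start the response, EIF2AK1 was lower (-0.55, adjusted p = 3.34e-04), and EIF2AK2 (0.12), EIF2AK3 (0.18) and EIF2AK4 (-0.18) did not pass (adjusted p 0.148 to 0.418). After the length and GC correction EIF2AK2 (-0.29, adjusted p = 0.00186) and EIF2AK4 (-0.35, adjusted p = 2.96e-04) were called lower, as was EIF2AK4 without Rho0 replicate 4 (-0.28, adjusted p = 0.00491), while scaling by total counts alone called EIF2AK2 (0.52) and EIF2AK3 (0.57) higher. Over 20 ISR sensors and regulators, 8 were higher and 6 lower, with a median of 0.06, beside 29.0% and 25.4% of all genes. The length and GC correction moved the median of all genes to -0.04, with 5195 of 15184 lower. With it 9 of these 20 genes were lower, and their median was -0.02. Of these genes, PPP1R15A (0.73), which ends the response, and EIF2B2 (-1.52), a subunit of the exchange factor of eIF2, were among the most changed. Of 24 known ATF4 targets outside the synthetases, 23 were tested (VLDLR was not), 17 were higher and 1 was lower, with a median of 1.05. Scaling by total counts alone gave 21 higher, none lower and a median of 1.44, beside 56.5% and 10.1% of all genes. The 1 gene that was lower with TMM scaling was ATF3 (-0.67), named after its value was seen. ALDH1L2 (4.10), CHAC1 (3.19), CBS (2.65) and the cystine carrier gene SLC7A11 (2.28) changed most among those with at least 5 CPM in the higher line, against a highest value of 0.67 and a median of 0.24 among the cytosolic synthetases. These lists were compiled from general knowledge of the pathways, with earlier results of these data known, and no test compared them with the synthetases.

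**Figure D5:**
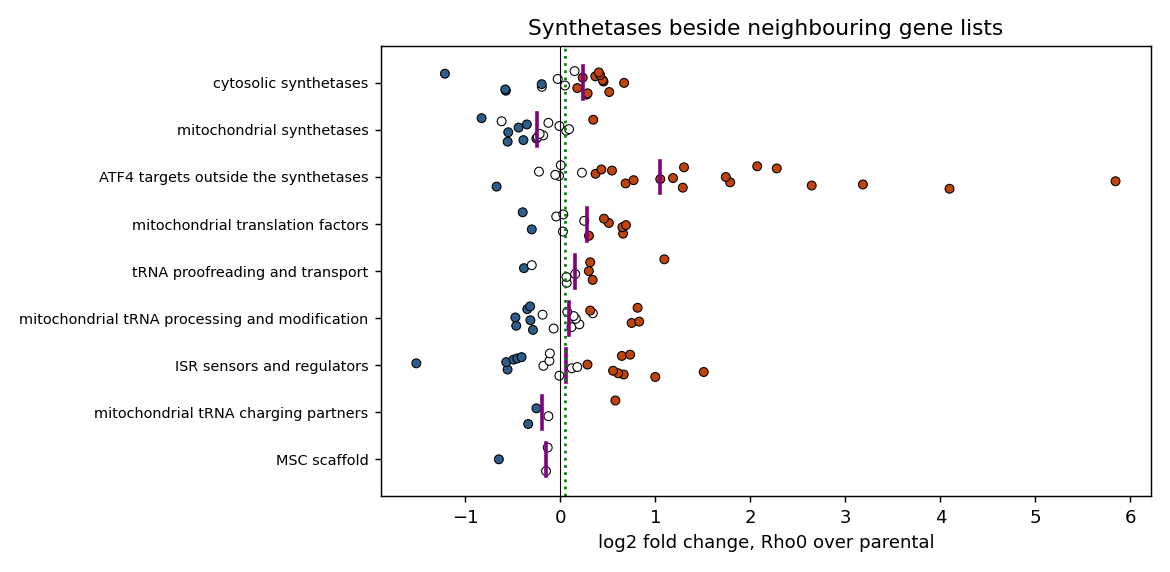
Log2 fold change, Rho0 over parental, of each tested gene in the synthetase lists and the neighbouring lists; filled points passed an adjusted p of 0.05, bars mark list medians, and the dotted line marks the median of all genes (0.05). ATF4 targets reach furthest to the right (median 1.05), the cytosolic synthetases lie near 0.24, and the mitochondrial synthetases lie near -0.24, or 0.14 when libraries are scaled by total counts alone.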

How the data were processed

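Poly-A RNA was enriched from 2 ng of RNA with a strand-specific kit, per the labels. The authors deposited estimated counts per gene ID and, in a second table, normalized log2 values. Tools named per the submitters' processing notes are kallisto, edgeR and limma, with GRCh38. Versions and the strand setting were not given in the sources used here. kallisto assigns reads among transcripts, so overlapping or near-identical genes can share reads: 10 synthetases share exonic bases with a gene on the opposite strand and 3 with one on the same strand. All 8 columns were used. The members and lists were chosen with earlier results of these data known.

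Estimated counts were rounded and fitted in edgeR 4.0.16 (R 4.3.3; filterByExpr with a minimum count of 10, TMM, quasi-likelihood F-test, Benjamini-Hochberg over 15184 genes, threshold 0.05), with both lines in one fit and no covariate. The procedure was tested on simulated data. Alternatives used limma 3.58.1 on the deposited log2 table, DESeq2 1.42.0, other filters and scalings, and each library left out. A correction for length and GC content (93.7% of genes) and the removal of VARS1 and VARS2 were added after seeing the data. Names, coordinates and principal transcripts came from GENCODE 29 (GRCh38) and promoters from RefSeq (GRCh38.p14). All 35 synthetases were named, and up to 4 genes per other list, those called with the largest change and at least 5 CPM in the higher line, plus ATF4, DDIT3, the ISR kinases, the scaffold genes, TARS3 and MTFMT; pseudogenes were named only at 5% of their parent gene or more, which none reached. Replicates are called biological in the labels; no 2 libraries agreed within sampling noise. The biological coefficient of variation was 13.7%.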

Additional observations from a re-analysis of the deposited data

Results flagged for a closer look

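In 3 of the 76 groups of 4 libraries examined (each of the 35 genes, the sums and their ratio, in each line), the highest or lowest library stood further from its nearest neighbour, relative to the group's range, than Dixon's test allows, a limit that chance passes in about 1 of 20 groups. FARSB was at 24.5 CPM in Rho0 replicate 1, below 25.4 to 25.6 CPM in the other Rho0 libraries, a small step within a very tight group and far below the parental range of 36.3 to 39.6 CPM. QARS1 was at 220.8 CPM in parental replicate 3, against 197 to 199 CPM in the other parental libraries. PARS2 was at 9.69 CPM in parental replicate 3, against 7.62 to 7.83 CPM in the other parental libraries, and without that library its lower value in Rho0 was not called (adjusted p = 0.0791).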

How the results depend on the processing

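Of the 23 called synthetases, 10 kept direction and call in every alternative that gave a value (CARS1, LARS1, MARS1, NARS1, SARS1, TARS1, VARS1, WARS1, WARS2 and YARS2), and of the 12 not called none stayed uncalled with the same sign throughout. With scaling by total counts alone, over all genes 8583 were higher and 1540 lower, cytosolic genes called lower were 1, mitochondrial genes called higher were 4 and lower 1, and the medians were 0.62 and 0.14. It turned the sign of HARS1 (0.19), KARS1 (0.19), QARS1 (0.36), CARS2 (0.0052), EARS2 (0.14), FARS2 (0.15), HARS2 (0.21), IARS2 (0.17), RARS2 (0.38), SARS2 (0.035) and TARS2 (0.27). These totals include the mRNAs of mitochondrial DNA. A separate fit left those mRNAs out of the totals but kept the TMM adjustment, and its medians were 0.22 and -0.26. Scaling by total counts alone without those mRNAs was not tested. The length and GC correction gave medians of 0.15 and -0.30, beside -0.04 for all genes, of which 4235 were higher and 5195 lower. It turned IARS1 (-0.15) and NARS2 (-0.0073). MARS2 turned with limma-trend (-0.033), and RARS2 with a minimum of 50 counts (0.017) and with no filter (0.0047). Leaving out each library gave 7265 to 8982 genes called (3774 to 4591 higher, 3415 to 4391 lower), 8 to 11 cytosolic genes higher and 3 to 5 lower with medians of 0.21 to 0.27, 1 mitochondrial gene higher and 4 to 9 lower with medians of -0.38 to -0.21, a difference of medians of 0.46 to 0.59 and a median pair difference of 0.43 to 0.52. It changed the sign of IARS1 (-0.012 to 0.077), QARS1 (-0.13 to 0.057), MARS2 (-0.24 to 0.17) and RARS2 (-0.047 to 0.0022). The causes were not tested. VARS2 was called in limma-trend alone (-0.38, adjusted p = 0.00512). Same-numbered libraries deviated together with correlations of -0.135, 0.037, 0.002 and 0.155, and not every sample correlated best with its own number, so the numbers were not taken as pairs. A fit with the replicate number as a block called 8017 genes, 10 cytosolic genes higher and 3 lower, 1 mitochondrial gene higher and 7 lower; GARS1, KARS1 and EARS2 were not called, IARS2 was, and MARS2 was at -0.019. VARS2 and MARS2, at 0.518 to 3.54 CPM, have few counts and wide errors (SE 0.31 and 0.24).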
